A study of Mus musculus with 9 samples.

Results

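Megakaryocytes make platelets, and a small set of genes marks that programme from the transcription factors at its head to the granule proteins and tubulin at its end. The rule listed 9 such genes by name, with earlier results of these data known, and 8 of them were analysed among 46626 genes of the table. They are the transcription factors Gata1, Nfe2 and Fli1, the α-granule chemokines Pf4 and Ppbp, the granule membrane receptor Treml1, the granule GTPase Rab27b and the platelet tubulin Tubb1. Zfpm1, the GATA1 cofactor that completes the list, was not analysed here. RNA came from haematopoietic stem cells (HSCs) of C57BL/6 mouse bone marrow, with about 2000 sorted cells behind each library. The groups were old mice given BRL37344, old mice given saline, and young mice given saline, with 3 libraries each and 9 in all. BRL37344, an agonist of the β3-adrenergic receptor, was delivered at 2.4 mg per kg per day by a pump under the skin for 12 weeks, a further pump being implanted after 6 weeks, and control mice had pumps with saline. Old mice were 15 to 20 months old and young mice 2 months old when pumps were implanted, per the labels. Whether replicates were separate animals or pools is not stated in the labels, and p-values therefore measure only spread between libraries, technical spread included.

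HSCs give rise to all blood cells, and part of the HSC pool carries megakaryocyte transcripts long before a megakaryocyte forms. GATA1 with its cofactor switches on megakaryocyte and red cell genes, FLI1 is an ETS factor that favours megakaryocytes over red cells, and NF-E2, whose large subunit Nfe2 encodes, is needed for platelet release. PF4 is stored in α-granules together with the PPBP precursor of β-thromboglobulin, and PF4 from megakaryocytes is known as a signal that holds HSCs in quiescence.

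The deposited values are RPKM, reads scaled to gene length and to the library total, and so can be set side by side between genes. Low values stepped in whole reads. From the steps, each library held, counted in 1000000 reads, 15.96 to 44.9 in BRL37344 old, 15.3 to 41.4 in saline old and 12.2 to 22.4 in saline young. The 10 HSC markers checked were all tested, and their summed level was 735 to 1159 RPKM in BRL37344 old, 791 to 928 RPKM in saline old and 860 to 1084 RPKM in saline young. Neutrophil markers, by contrast, summed to 183, 5739 and 1842 RPKM in BRL37344 old replicates 1, 2 and 3, to between 676 and 905 RPKM in saline old, and to 1079, 1733 and 19599 RPKM in saline young replicates 1, 2 and 3. Every saline old library thus lay below every saline young one in this sum, as it did for 9 of the 10 neutrophil genes, and none of the 10 passed the limma test (1 at an unadjusted p under 0.05). Libraries were compared with limma on log2(RPKM + 0.5), with Benjamini-Hochberg adjustment over all 13516 genes tested and a threshold of 0.05. In these bulk samples fewer cells of a type and less RNA per cell cannot be told apart.

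All 8 members were tested, and none passed in any of the 3 comparisons. For saline old against saline young, 0 of 8 passed, where 1.58% of all genes tested did. Nor did any of the 8 for BRL37344 old against saline old, where 0.0% of all genes passed, and for BRL37344 old against saline young 0 of 8 passed, where 0.769% did. At an unadjusted limma p under 0.05 there were 2, 2 and 1 members in these comparisons, against 15.0%, 5.64% and 9.38% of all genes. They were Ppbp and Rab27b in the first and second comparison and Tubb1 in the third. The members spanned almost the whole range of expression. Averaged over the 9 libraries, Nfe2 lay at percentile 99.1 of the tested genes by mean log2 level, Pf4 at 97.2, Fli1 at 86.5, Rab27b at 69.7, Ppbp at 50.5, Treml1 at 38.5, Tubb1 at 21.6 and Gata1 at 15.4. In that order the 9-library ranges of neighbours did not overlap between Pf4 and Fli1, Fli1 and Rab27b, and Rab27b and Ppbp. They overlapped for Nfe2 and Pf4, Ppbp and Treml1, Treml1 and Tubb1, and Tubb1 and Gata1.

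**Figure D1:**
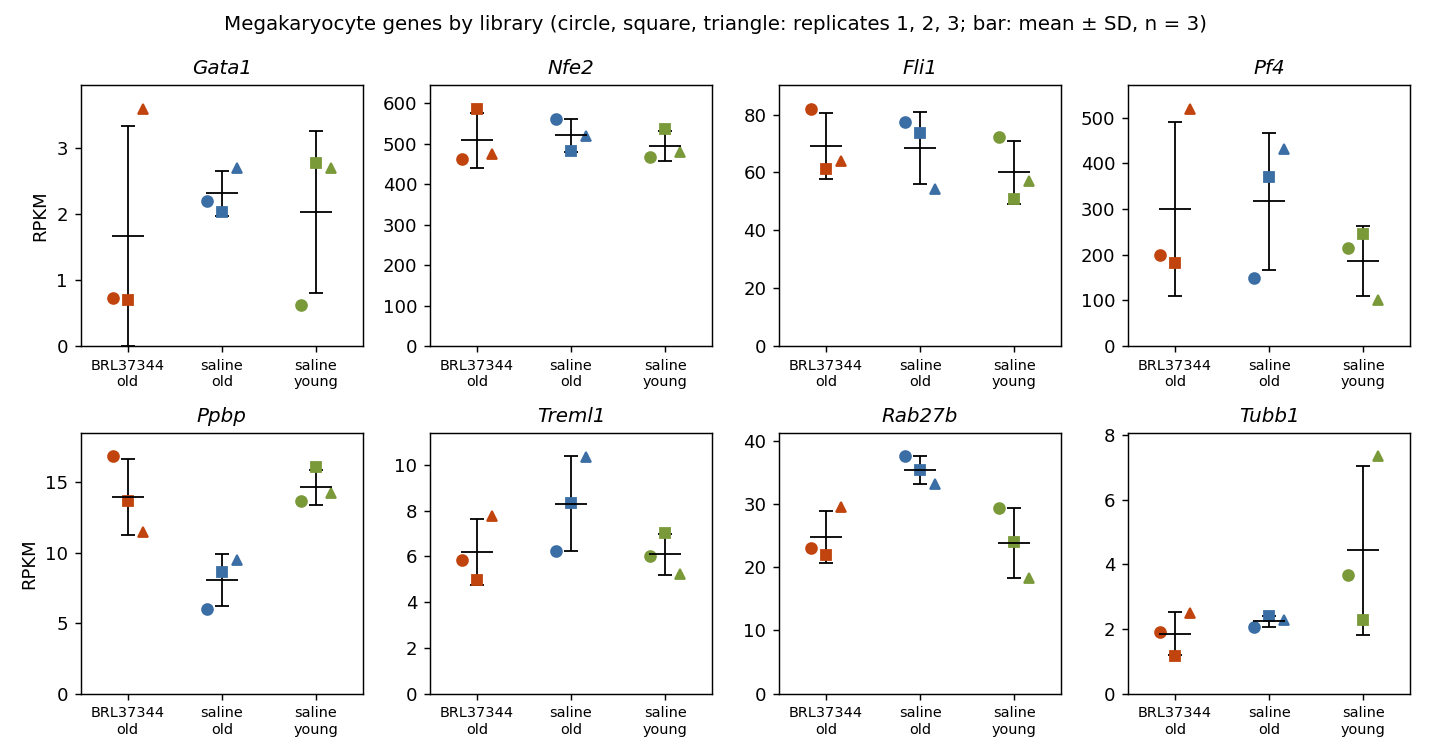
RPKM of the 8 megakaryocyte genes in each library (circles, squares and triangles are replicates 1, 2 and 3; bars are mean ± SD, n = 3; each axis starts at 0). The 3 saline old libraries sit below all others for Ppbp, at 5.99 to 9.49 RPKM, and above all others for Rab27b, at 33.2 to 37.5 RPKM, while Nfe2 stays between 463 and 587 RPKM throughout.

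Nfe2 was among the most abundant transcripts of these HSCs and the steadiest member. It stood at 463, 587 and 476 RPKM in BRL37344 old, 563, 482 and 520 RPKM in saline old, and 467, 536 and 480 RPKM in saline young. The groups overlapped, and the highest library was only 1.27 times the lowest. The log2 change was 0.08 ± 0.12 SE for saline old against saline young, with a 95% interval of -0.18 to 0.34, and -0.04 ± 0.12 SE for BRL37344 old against saline old, with an interval of -0.30 to 0.22. Its pooled SD within groups, 0.14 on the log2 scale, lay at percentile 12.6 of the tested genes.

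Fli1 did not separate the groups either. It stood at 82.0, 61.0 and 63.8 RPKM in BRL37344 old, 77.4, 73.5 and 54.4 RPKM in saline old, and 72.2, 50.8 and 57.1 RPKM in saline young. The 3 groups overlapped throughout, and the highest library was 1.62 times the lowest. Its SD within groups, 0.25 on the log2 scale, lay at percentile 43.2. The log2 change was 0.19 ± 0.18 SE for saline old against saline young (95% interval -0.22 to 0.59) and 0.01 ± 0.18 SE for BRL37344 old against saline old (95% interval -0.39 to 0.42).

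Gata1 was the lowest member. It stood at 0.720, 0.698 and 3.60 RPKM in BRL37344 old, 2.20, 2.04 and 2.70 RPKM in saline old, and 0.618, 2.78 and 2.70 RPKM in saline young. It was therefore low in BRL37344 old replicates 1 and 2 and saline young replicate 1, and above 2 RPKM in the other libraries, a split that did not follow the groups. The log2 change was -0.62 ± 0.55 SE for BRL37344 old against saline old (limma adjusted p = 0.873) and 0.30 ± 0.55 SE for saline old against saline young (limma adjusted p = 0.859). The first ran from -1.21, without BRL37344 old replicate 3, to -0.32, without BRL37344 old replicate 2. The second turned to -0.21 without saline young replicate 1 and was 0.56 without saline young replicate 2. Erythroid markers, which GATA1 also serves, summed to 36.5, 166 and 123 RPKM in BRL37344 old, 175, 114 and 50.0 RPKM in saline old, and 48.7, 118 and 138 RPKM in saline young. Their sum was low in 2 of the 3 libraries with low Gata1 and in saline old replicate 3, where Gata1 was not low, and was high in BRL37344 old replicate 2, where it was. Most of the sum in every library came from the globin genes Hba-a1, Hba-a2, Hbb-bs and Hbb-bt, so it describes mainly those genes. The part of erythroid cells in the Gata1 values was not tested. Gata2, the paralog that acts earlier in blood formation, was far more abundant, at 272 ± 16.7 RPKM in BRL37344 old, 275 ± 32.2 RPKM in saline old and 243 ± 11.9 RPKM in saline young (SD, n = 3 each).

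Pf4 and Ppbp are CXC chemokine genes that lie next to each other on the plus strand of chromosome 5. Ppbp spans chr5:90768518-90770063 and Pf4 chr5:90772435-90773383 in GRCm38, with 2371 bases between them. The 250 bases before each start, as listed by RefSeq on GRCm38.p6, are shown for these neighbours. All groups overlapped for Pf4, while the saline old libraries lay below all others for Ppbp, and neither gene passed in any comparison. Whether the patterns of these neighbours differed was not tested, nor was any part of these bases in them. The window of Treml1 is shown because its level followed that of Pf4. Capitals mark a match to an ETS word, AGGAAG or CGGAAG, on either strand.
Pf4, chr5:90772185-90772434, plus strand: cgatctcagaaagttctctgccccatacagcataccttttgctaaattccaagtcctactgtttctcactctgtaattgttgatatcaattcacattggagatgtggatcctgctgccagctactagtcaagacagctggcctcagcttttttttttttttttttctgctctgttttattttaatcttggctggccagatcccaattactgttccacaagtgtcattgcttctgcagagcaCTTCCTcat
Ppbp, chr5:90768268-90768517, plus strand: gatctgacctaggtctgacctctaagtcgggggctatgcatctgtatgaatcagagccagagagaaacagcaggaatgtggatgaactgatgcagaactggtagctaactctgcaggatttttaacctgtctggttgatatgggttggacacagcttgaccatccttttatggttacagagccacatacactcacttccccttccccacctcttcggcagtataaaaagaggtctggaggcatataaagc
Treml1, chr17:48359666-48359915, plus strand: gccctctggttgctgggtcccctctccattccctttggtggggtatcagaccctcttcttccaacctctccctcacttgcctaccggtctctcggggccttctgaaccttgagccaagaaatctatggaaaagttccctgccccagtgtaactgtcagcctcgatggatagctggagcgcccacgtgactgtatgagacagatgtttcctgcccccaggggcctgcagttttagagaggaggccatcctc
The Pf4 window held AGGAAG on the minus strand, beginning 9 bases before the start, and the windows of Ppbp and Treml1 held no ETS word. Of the 8 members, 5 had a window that was read, and the ETS words also matched once each in those of Gata1 and Tubb1. No window was read for Nfe2, Fli1 and Rab27b, so nothing is known here of the words before those genes. None of the 5 held a GATA word, which was AGATAA or, with the outer letters changed, TGATAA or else AGATAG or else TGATAG, and none held TGAGTCA, the core that NF-E2 shares with AP-1, on either strand. Over all 32851 windows of the same length, 39.2% held an ETS word, 26.5% a GATA word and 4.46% the NF-E2 core.

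Pf4 was abundant and varied widely within groups. It stood at 200, 181 and 520 RPKM in BRL37344 old, 148, 370 and 433 RPKM in saline old, and 215, 245 and 100 RPKM in saline young. Both old groups held low and high libraries, and all 3 groups overlapped. Pf4 had a log2 change of 0.72 ± 0.54 SE for saline old against saline young (limma adjusted p = 0.597, 95% interval -0.52 to 1.96) and -0.11 ± 0.54 SE for BRL37344 old against saline old (limma adjusted p = 0.978, 95% interval -1.35 to 1.13). With single libraries left out, the change for saline old against saline young ran from 0.32, without saline young replicate 3, to 1.197, without saline old replicate 1, and was 0.425 without saline old replicate 3. Its pooled SD within groups, 0.79 on the log2 scale, was at percentile 93.6 of the tested genes.

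Ppbp was less abundant, and lowest in saline old. It stood at 16.8, 13.6 and 11.5 RPKM in BRL37344 old, 5.99, 8.66 and 9.49 RPKM in saline old, and 13.7, 16.04 and 14.3 RPKM in saline young. Every saline old library lay below every library of both other groups, which overlapped each other. With 1 annotated transcript of 1083 bases, these values correspond to 81 to 347 reads in saline old and 147 to 454 reads in the other libraries. This gave a log2 change of -0.85 ± 0.21 SE for saline old against saline young (limma adjusted p = 0.0941, lower in 3 of 3 libraries) and 0.77 ± 0.21 SE for BRL37344 old against saline old (limma adjusted p = 0.839, higher in 3 of 3 libraries). Neither passed. The adjusted p of the first was 0.0197 with sample quality weights and otherwise between 0.0795 and 0.331 over the alternatives. BRL37344 old and saline young differed by -0.08 ± 0.21 SE (95% interval -0.55 to 0.40).

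Markers of other cells were summed in the same libraries. T cell markers, 2 of 5 of them tested, summed to 9.86 to 13.5 RPKM in BRL37344 old, 6.43 to 9.03 RPKM in saline old and 9.91 to 12.97 RPKM in saline young. Most of this sum was Lck, at 7.76 to 11.2 RPKM in BRL37344 old, 6.22 to 8.75 RPKM in saline old and 7.43 to 10.2 RPKM in saline young. Lck overlapped between the groups. Cd4, the other T cell gene tested, stood in RPKM at 0.963 to 2.26 in BRL37344 old, 0.106 to 1.29 in saline old and 2.18 to 4.60 in saline young. Every saline old library lay below every saline young one for Cd4. Cd3e and Cd8a were at the offset in all saline libraries, old and young. Eosinophil markers, 1 of 6 tested and Epx at the offset in all libraries, summed to 2.12 to 4.86 RPKM in BRL37344 old, 0.904 to 1.83 RPKM in saline old and 4.29 to 6.60 RPKM in saline young. Most of this sum was Ear2, at 1.93 to 3.04 RPKM in BRL37344 old, 0.789 to 1.70 RPKM in saline old and 3.01 to 5.49 RPKM in saline young. Both the T cell and the eosinophil sum were lowest in the saline old libraries, as Ppbp was. Each rested mainly on 1 gene, so neither sum shows by itself that such cells were present. Macrophage markers summed to 32.3 to 120 RPKM in BRL37344 old, 40.8 to 78.2 RPKM in saline old and 72.6 to 178 RPKM in saline young. All 8 macrophage genes had a negative log2 change for saline old against saline young and a positive one for BRL37344 old against saline old, and their sums overlapped between groups. B and plasma cell markers, 3 of 6 tested and Pax5 at the offset, summed to 47.6 to 308 RPKM in BRL37344 old, 46.0 to 53.3 RPKM in saline old and 43.1 to 318 RPKM in saline young. Basophil and mast cell markers had 2 of 8 genes tested, with Cma1 and Tpsb2 at the offset in all libraries. Their sum, in RPKM, was 5.38 to 28.1 in BRL37344 old, 5.84 to 24.5 in saline old and 6.16 to 28.0 in saline young. Of the genes tested, Cpa3 overlapped between the groups. Fcer1a stood at 1.65, 0.0002 and 7.85 RPKM in BRL37344 old. It stood at 0.982, 7.97 and 8.90 RPKM in saline old and 0.206, 0.0002 and 0.925 RPKM in saline young. No gene of these lists passed the limma test in any comparison. For saline old against saline young, 1 T cell, 1 eosinophil, 2 macrophage, 0 B and plasma cell and 1 basophil and mast cell genes had an unadjusted p under 0.05. The part of such cells in the Ppbp and Rab27b values was not tested. Without the 2 libraries highest in neutrophil markers, BRL37344 old replicate 2 and saline young replicate 3, the log2 change for saline old against saline young was -0.86 for Ppbp and 0.40 for Rab27b.

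As a share of Pf4 per length, a ratio chosen after the values were seen and so not tested, Ppbp was 8.41%, 7.53% and 2.21% in BRL37344 old, 4.04%, 2.34% and 2.19% in saline old, and 6.35%, 6.55% and 14.2% in saline young. The share was lower in every saline old library than in every saline young one. BRL37344 old replicate 3 lay within the saline old range and replicates 1 and 2 within the saline young range. The CXC chemokine genes Cxcl1, Cxcl3 and Cxcl15 were listed at or next to the table's offset, which stands for no reads, in all 9 libraries, and Cxcl2 and Cxcl5 did not exceed 0.557 and 1.84 RPKM.

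Rab27b encodes a small GTPase that brings secretory granules to the plasma membrane and is needed for platelet dense granules. It stood at 23.0, 22.0 and 29.5 RPKM in BRL37344 old, 37.5, 35.4 and 33.2 RPKM in saline old, and 29.3, 24.0 and 18.3 RPKM in saline young. Every saline old library lay above every library of both other groups. Rab27b had a log2 change of 0.58 ± 0.18 SE for saline old against saline young (limma adjusted p = 0.181, higher in 3 of 3 libraries) and -0.51 ± 0.18 SE for BRL37344 old against saline old (limma adjusted p = 0.839, lower in 3 of 3 libraries). Neither passed. The adjusted p of the first was 0.0292 with sample quality weights and otherwise between 0.12 and 0.489. BRL37344 old and saline young differed by 0.07 ± 0.18 SE (95% interval -0.34 to 0.48). Rab27a, the close paralog, stood at 36.5 ± 2.64 RPKM in BRL37344 old, 42.1 ± 2.08 RPKM in saline old and 40.1 ± 2.44 RPKM in saline young (SD, n = 3 each).

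Ppbp and Rab27b were thus the only 2 of the 8 members whose groups did not overlap for saline old against saline young, 1 lower and 1 higher, where 20.3% of all genes tested had that property, 10.9% lower and 9.39% higher. The same 2 lay apart for BRL37344 old against saline old, Ppbp higher and Rab27b lower, where 10.1% of all genes did, 4.82% higher and 5.28% lower, and for BRL37344 old against saline young it was 0 of 8, where 15.2% did. The first and second comparison share the saline old libraries, so a gene that is low or high in those libraries gets changes of opposite sign, and the second is no separate evidence for the first. Across the 9 libraries log2 levels of Ppbp and Rab27b had r = -0.83, the most negative of the 28 pairs of members. The libraries fall into the 3 groups, and this value, like the other correlations given, is a description of 9 libraries.

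**Figure D2:**
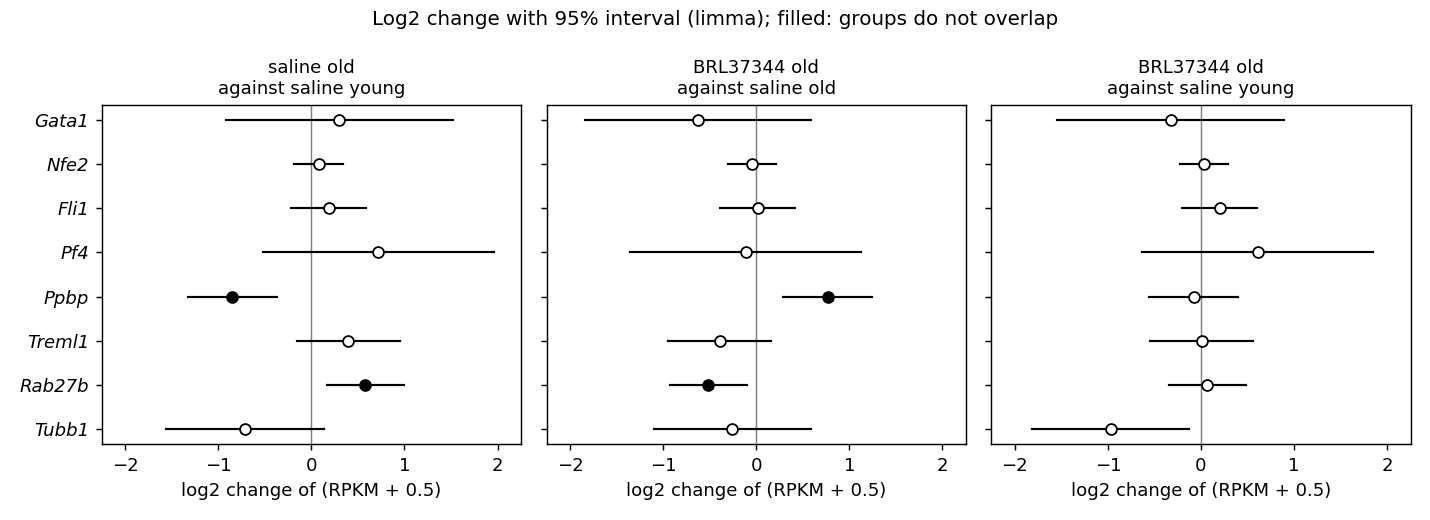
Log2 change of RPKM + 0.5 with its 95% interval from limma for the 8 genes (rows) in the 3 comparisons (panels); filled points mark genes whose groups did not overlap. Ppbp and Rab27b are filled in the first and second panel with changes of opposite sign, and the intervals of Gata1 and Pf4 are the widest.

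Treml1 encodes TLT-1, a receptor of megakaryocytes and platelets that is kept in α-granule membranes until activation. It stood at 5.84, 4.96 and 7.75 RPKM in BRL37344 old, 6.23, 8.31 and 10.4 RPKM in saline old, and 6.02, 7.02 and 5.22 RPKM in saline young. The groups overlapped. The log2 change was 0.40 ± 0.25 SE for saline old against saline young (limma adjusted p = 0.493) and -0.39 ± 0.25 SE for BRL37344 old against saline old (limma adjusted p = 0.848). Its level followed that of Pf4 from library to library, with r = 0.83, the highest of the 28 pairs. BRL37344 old replicate 3 and saline old replicates 2 and 3 held the 3 highest values of both genes. The same libraries held the 3 highest sums of megakaryocyte and platelet surface markers, at 500, 507 and 505 RPKM. Within that marker list this was so for Gp1ba, Gp9 and Cd9, but not for Itga2b, Itgb3, Gp1bb, Gp5, Gp6 or Clec1b. The part of such cells in the Pf4 and Treml1 values was not tested.

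**Figure D3:**
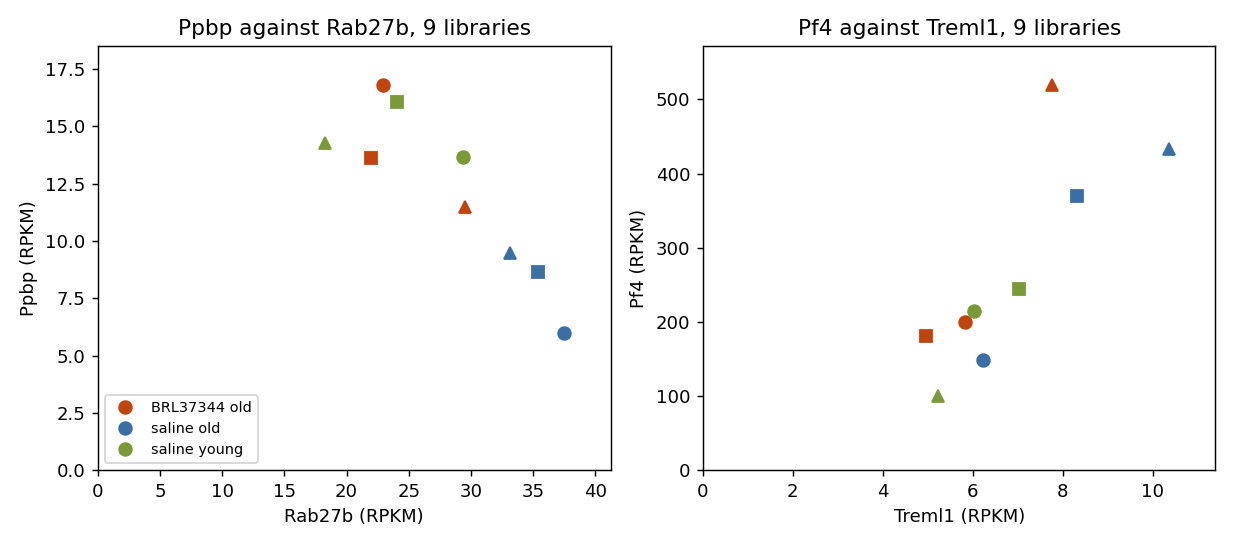
RPKM of Ppbp against Rab27b (left) and of Pf4 against Treml1 (right) in the 9 libraries, coloured by group, with circles, squares and triangles for replicates 1, 2 and 3. The saline old libraries sit at high Rab27b and low Ppbp, while on the right BRL37344 old replicate 3 and saline old replicates 2 and 3 hold the highest values of both genes.

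Tubb1 encodes β1-tubulin, which forms the microtubule coil of platelets and is a known target of NF-E2. It stood at 1.91, 1.18 and 2.49 RPKM in BRL37344 old, 2.06, 2.39 and 2.29 RPKM in saline old, and 3.67, 2.29 and 7.34 RPKM in saline young. The groups overlapped through saline young replicate 2, and saline young replicate 3 stood above all other libraries. These levels correspond to 37 to 198 reads over a transcript of 1406 bases. The log2 change was -0.97 ± 0.38 SE for BRL37344 old against saline young (limma adjusted p = 0.435), -0.72 ± 0.38 SE for saline old against saline young (limma adjusted p = 0.414) and -0.26 ± 0.38 SE for BRL37344 old against saline old (limma adjusted p = 0.930). Without saline young replicate 3, the library highest in neutrophil markers, the first became -0.57 and the second -0.32, and without saline young replicate 2 they became -1.32 and -1.06. The part of neutrophil cells in the Tubb1 values was not tested. The main β-tubulin of these cells was Tubb5, at 184 ± 57.2 RPKM in BRL37344 old, 191 ± 53.1 RPKM in saline old and 205 ± 32.7 RPKM in saline young (SD, n = 3 each).

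As a list, 6 of the 8 members had a positive log2 change for saline old against saline young, with a median of 0.24 beside -0.02 over all genes tested. Only 2 of 8 were positive for BRL37344 old against saline old, with a median of -0.18 beside 0.01. Against saline young, BRL37344 old had 5 of 8 positive, with a median of 0.02 beside -0.04. These comparisons share groups pairwise. Between BRL37344 old and saline young the log2 change was 0.04 for Nfe2, 0.20 for Fli1, -0.32 for Gata1, 0.61 for Pf4 and 0.01 for Treml1, with 95% intervals that all held 0, the widest being those of Pf4 (-0.63 to 1.85) and Gata1 (-1.54 to 0.89). Without BRL37344 old replicate 3 the value became 0.13 for Pf4 and -0.91 for Gata1, and without saline young replicate 3 it became 0.21 for Pf4.

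The wider megakaryocyte programme was described with gene lists that hold none of the members. Of 18 transcription partners, all tested with limma, 0 passed in any comparison, and 2, 1 and 1 had an unadjusted p under 0.05 for saline old against saline young, BRL37344 old against saline old and BRL37344 old against saline young. Over all genes tested the shares were 15.0%, 5.64% and 9.38%. Runx1, a core factor of the blood lineage and a partner of GATA1 in megakaryocytes, had the smallest p in saline old against saline young among them, at 10.04 ± 0.733 RPKM in BRL37344 old, 4.27 ± 0.949 RPKM in saline old and 8.20 ± 1.31 RPKM in saline young (log2 change for saline old against saline young -0.87 ± 0.22 SE, limma adjusted p = 0.0902). Etv6, an ETS repressor needed for platelet production, had a log2 change of -0.50 ± 0.19 SE (limma adjusted p = 0.267). Gfi1b, a transcriptional repressor that acts within the megakaryocyte and red cell lineages, stood at 139 ± 34.8 RPKM in BRL37344 old, 120 ± 20.2 RPKM in saline old and 101 ± 9.92 RPKM in saline young. Among the paralogs of the members, 9 of 21 were tested with limma and 0 passed, with 1, 0 and 0 at an unadjusted p under 0.05 in the same order of comparisons. The ETS genes Ets1 and Erg had the smallest p, with log2 changes for saline old against saline young of -0.65 ± 0.25 SE and -0.98 ± 0.51 SE.

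Of 28 genes for granule cargo and biogenesis, all tested, 3 passed by limma in saline old against saline young, all higher, where 1.58% of all genes passed. In that comparison 19 changes were positive and 9 negative, and 7 genes had an unadjusted limma p under 0.05, against 15.0% of all genes. In BRL37344 old against saline old 0 passed and 6 had an unadjusted limma p under 0.05, against 0.0% and 5.64% of all genes. In BRL37344 old against saline young 1 passed, higher, against 0.769% of all genes. The 3 that passed in saline old against saline young were Selp, Vwf and Clu. Selp encodes P-selectin, an α-granule membrane protein, and averaged 95.1 ± 38.1 RPKM in BRL37344 old, 127 ± 16.5 RPKM in saline old and 8.25 ± 2.16 RPKM in saline young. Vwf encodes von Willebrand factor and had a log2 change of 1.94 ± 0.34 SE, and Clu, the chaperone clusterin, one of 4.48 ± 0.66 SE, for saline old against saline young (limma adjusted p = 0.0211 and 0.00957). Pf4 in the same granules had 0.72, or 0.32 to 1.197 with single libraries left out, and Ppbp -0.85. Selp alone passed in BRL37344 old against saline young, at 3.40 ± 0.28 SE.

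Of 21 tubulin and platelet cytoskeleton genes, 19 were tested. Plek, the platelet kinase substrate pleckstrin, was the 1 gene that passed, and it rose in saline old against saline young (1.18 ± 0.21 SE) and in BRL37344 old against saline young (1.62 ± 0.21 SE; limma adjusted p = 0.0211 and 0.00559). Flna, the actin crosslinker filamin A, had the next smallest p for age, at -0.35 ± 0.12 SE (limma adjusted p = 0.211). Of 13 platelet surface receptor genes, 11 were tested and 2 passed in saline old against saline young, both higher, where 1.58% of all genes passed. In that comparison 6 had an unadjusted limma p under 0.05, against 15.0% of all genes. The 2 were Itgb3 (1.95 ± 0.19 SE, limma adjusted p = 0.000643) and Cd9 (0.68 ± 0.12 SE, limma adjusted p = 0.0245), an integrin and a tetraspanin of the platelet membrane. Itgb3 also passed in BRL37344 old against saline young, at 1.61 ± 0.19 SE (limma adjusted p = 0.00357). Of the 11 tested, 0 passed in BRL37344 old against saline old by limma, with 1 at an unadjusted p under 0.05, against 5.64% of all genes. Over all 11 the median log2 change was 0.64 for saline old against saline young and -0.28 for BRL37344 old against saline old, beside -0.02 and 0.01 over all genes tested.

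Surface markers of megakaryocytes and platelets, 9 genes of which Gp6, the collagen receptor, did not exceed 0.313 RPKM, summed to 348, 361 and 500 RPKM in BRL37344 old, 472, 507 and 505 RPKM in saline old, and 306, 287 and 273 RPKM in saline young. All old libraries lay above all young ones in this sum, most of which was Cd9, at 182 to 328 RPKM over the 9 libraries. The mean log2 level of the 9 genes did not separate them so: it was 3.12, 3.27 and 4.06 in BRL37344 old, 3.94, 3.71 and 3.51 in saline old, and 3.13, 3.11 and 2.94 in saline young. Itga2b, the αIIb integrin, stood at 27.9, 15.3 and 51.8 RPKM in BRL37344 old, 47.1, 38.1 and 42.8 RPKM in saline old, and 24.8, 26.3 and 17.1 RPKM in saline young. Its part in the members' values was not tested.

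**Figure D4:**
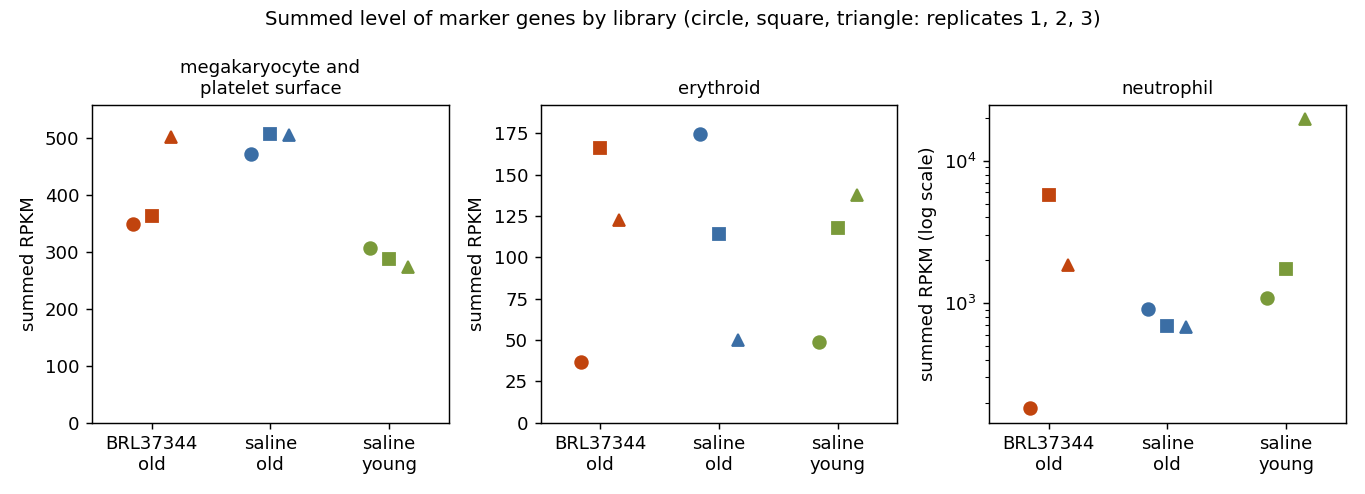
Summed RPKM of markers of megakaryocytes and platelets, erythroid cells and neutrophils in each library (circles, squares and triangles are replicates 1, 2 and 3; the neutrophil axis is on a log scale). The sum of megakaryocyte and platelet surface markers, mostly Cd9, is 348 to 507 RPKM in old libraries and 273 to 306 RPKM in young ones, and neutrophil markers are 676 to 905 RPKM in saline old, below the 1079 to 19599 RPKM of saline young, with BRL37344 old spread from 183 to 5739 RPKM.

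The genes whose log2 level was most like that of each member over the 9 libraries were taken from 7123 genes, as the 2 with the highest Pearson r. These were genes whose log2 levels averaged 3 or more, and those with Gm, Rik, LOC or clone names were left out. For Ppbp they were Wdfy4 (r = 0.95) and Nr3c1, the glucocorticoid receptor (r = 0.94), and for Rab27b they were Immp1l and Klhl23 (both r = 0.93). Klhl23 stood at 22.0, 19.8 and 31.8 RPKM in BRL37344 old, 44.7, 46.4 and 51.0 RPKM in saline old, and 34.0, 27.9 and 21.3 RPKM in saline young. For Treml1 they were Commd1 (r = 0.98) and Cuta (r = 0.97), for Pf4 Uqcc3 (r = 0.97) and Khk (r = 0.95), and for Gata1 Noc4l (r = 0.96) and Ctps (r = 0.95). For Nfe2 they were Hspb6 and Hsph1 (both r = 0.93), for Fli1 Ccdc122 (r = 0.93) and Ap1b1 (r = 0.92), and for Tubb1 Lins1 (r = 0.87) and Tbc1d1 (r = 0.82). These values describe 9 libraries and were chosen as the highest of 7123.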

How the data were processed

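Libraries from sorted HSCs used the SMART-Seq v4 kit, followed by Nextera XT, per the labels. Named in the submitters' processing notes, without role, are mm10, STAR 2.5.3a, Trim Galore and Partek. The authors deposited RPKM values, 1 per gene and library, with an offset of 0.0001 per transcript; the unit was read from the values, which are not whole and sum to between 570571 and 604579 per library, and FPKM could not be told apart from it. Depth was inferred from 5577 genes with 1 transcript of at least 1000 bases, with lengths reduced by 200 bases; 86.9% to 89.6% of low values lay within 0.05 of a whole read.

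Columns were matched to samples by the labels' description and to groups by title. All 9 column names close with a common tag. Its letters could be read as young and saline, yet both old groups carry it too, in conflict with their titles. A running number before the tag follows the order of the titles, with saline young first, then saline old, then BRL37344 old. The tag thus does not separate the groups, and the age and treatment of each library rest on the titles. limma 3.58.1 in R 4.3.3 was fitted to log2(RPKM + 0.5), with trend and robust variances, in 1 model over 9 libraries with 6 residual degrees of freedom, for genes of at least 1 RPKM in at least 3 libraries; this was tested on simulated data. Of 46628 rows, 2 named no gene. The 18 unnamed value columns of a second deposited sheet were not used. Members, lists, the alternatives and the genes named (all members, called list genes, the 2 smallest p of each list, any marker and the 2 genes most like each member) were chosen with earlier results of these data known; Gfi1b, Gata2, Rab27a and Tubb5 and the chemokines near Pf4 were added for their roles. Alternatives were other scalings, filters, pseudocounts and variance models, only the 2 groups compared, a replicate block, and libraries left out.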

Additional observations from a re-analysis of the deposited data

How the results depend on the processing

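No member passed in any comparison under any alternative except sample quality weights, under which 2 of 8 passed for saline old against saline young, Ppbp lower and Rab27b higher, and 9.5% of all genes did, against 1.58% without weights. Ppbp and Rab27b kept their direction for saline old against saline young and for BRL37344 old against saline old under all alternatives run. The replicate numbers were not taken to pair the libraries, since same-numbered libraries correlated above 0.1 in only 2 of 9 pairs (-0.05 to 0.19 overall). With the replicate block 0 members passed and 174 genes did for saline old against saline young, with log2 changes of -0.85 for Ppbp and 0.58 for Rab27b.

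Over all genes the count for saline old against saline young was 213, 140 with no filter, 1284 with quality weights, 82 without the 2 libraries highest in neutrophil markers, and 96 to 586 with each library left out in turn (leaving out saline old replicates 1, 2 and 3 gave 586, 96 and 129, and leaving out saline young replicates 2 and 3 gave 96 and 116). The count for BRL37344 old against saline old was 0, then 1 with no trend or with a pseudocount of 0.1, 2 with only the 2 groups compared, 3 with quality weights, and 0 to 39 with each library left out, the 39 without BRL37344 old replicate 3. Between BRL37344 old and saline young it was 104, 169 with quality weights, 42 without the 2 libraries highest in neutrophil markers, and 57 to 163 with each library left out (57 and 62 without saline young replicate 2 and 3, 64 and 163 without BRL37344 old replicate 2 and 3).

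Signs turned only for log2 changes near 0 and for Pf4 and Gata1, none of them called; the cause was not tested. For saline old against saline young, Nfe2 was -0.040 with quantile normalisation and -0.0055 with quality weights, and Gata1 ran from -0.21 to 0.56 with each library left out. For BRL37344 old against saline old, quality weights gave 0.073 for Nfe2 and -0.043 for Fli1, and leaving out libraries gave -0.15 to 0.022 for Nfe2, -0.14 to 0.11 for Fli1 and -0.59 to 0.18 for Pf4, which was 0.17 without the 2 libraries highest in neutrophil markers. For BRL37344 old against saline young, Nfe2 was -0.066 with quantile normalisation, Treml1 -0.085 with quality weights, and without those 2 libraries Gata1 was 0.22, Nfe2 -0.092 and Rab27b -0.028. Leaving out libraries gave -0.071 to 0.099 for Nfe2, -0.22 to 0.050 for Ppbp, -0.15 to 0.14 for Treml1 and -0.11 to 0.23 for Rab27b. Gata1 and Tubb1 had no value at a filter of 5 RPKM. With 3 libraries a group, the widest 95% intervals among the members were those of Pf4 and Gata1.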
